A study of Mus musculus with 6 samples.

Results

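The integrated stress response and amino acid transport set holds 10 genes: Atf4, Ddit3, Ddit4, Asns, Trib3, Sesn2, Slc7a5, Slc3a2, Slc1a5 and Slc38a2. They were chosen by name, with earlier results of these data known. All 10 were found among the 17744 genes of the authors' full table, by gene symbol. They were measured by RNA-seq in CD8 T cells that had been sorted from mouse spleen on CD45, CD3 and CD8a. There were 3 control libraries, whose genotype is given as wt and treatment as control, and 3 libraries labelled fus irradiation under both genotype and treatment, here called ultrasound libraries. The series title names focused ultrasound of the spleen and tumor suppression as its subject, and the comparison asks how these genes differ between the groups. Strain, age, tumor status, ultrasound dose, batch and the interval between treatment and sorting are not given in the sources used here. Nothing in the labels says that the libraries came from separate animals or that animals were pooled, so p-values measure the spread between these samples, which may be technical.

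In the integrated stress response, kinases that sense amino acid shortage, unfolded protein, heme deficiency or viral RNA phosphorylate the translation factor eIF2, and general protein synthesis slows. The mRNA of Atf4 is then translated more efficiently, because short reading frames ahead of its coding sequence normally divert ribosomes, so the Atf4 transcript level and ATF4 protein level need not move together. ATF4 is a transcription factor that, with partners of the C/EBP family, switches on genes for amino acid uptake and synthesis, and CHOP, TRIB3 and other regulators. T cells depend on amino acid transporters, LAT1 with its CD98 heavy chain above all, when they are activated and grow.

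ATF4 and its C/EBP partners bind a composite element whose core is TGATGNAA. The RefSeq promoter table (GRCm38.p6) has windows of 250 bases before to 50 after the transcription start for 8 of the 10 genes, all but Slc7a5 and Slc1a5. These windows were searched on both strands for TGATGNAA, for the cAMP response element TGACGTCA and for the E-box CACGTG, none of which contains another. TGATGNAA was matched in 2 of the 8 windows, those of Asns and Trib3, against 3.97% of all 32851 windows of the table and 2.27% of the 10894 windows of tested genes. It was matched in 19 of 143 windows of the wider pathway lists described below (13.3%). TGACGTCA and CACGTG were matched in 0 of the 8 windows, against 1.79% and 7.15% of all windows. For tested genes the shares were 3.11% and 10.3%, and for the wider pathway lists 2.10% and 14.7%. A match of letters is a description and does not show that a factor binds there. The 2 matched members are shown with 3 further pathway genes whose windows hold the element, 5′ to 3′ on the strand of the gene, with the match in capitals (a match on the opposite strand appears as its reverse complement).
Asns, chr6:7693214-7693243, minus strand: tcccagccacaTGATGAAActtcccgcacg
Trib3, chr2:152344028-152344057, minus strand: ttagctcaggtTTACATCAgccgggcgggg
Atf3, chr1:191183406-191183473, minus strand: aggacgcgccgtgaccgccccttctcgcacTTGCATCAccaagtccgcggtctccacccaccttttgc
Chac1, chr2:119351019-119351086, plus strand: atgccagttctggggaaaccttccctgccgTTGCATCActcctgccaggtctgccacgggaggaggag
Slc7a11, chr3:50443623-50443709, minus strand: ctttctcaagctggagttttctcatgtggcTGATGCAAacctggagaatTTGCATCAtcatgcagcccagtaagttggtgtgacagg

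The Slc7a11 window holds 2 copies, and the other windows shown hold 1 each. The windows of Atf4, which did not pass the test, and Slc38a2, which did, the 2 members with the lowest adjusted p, hold none of the 3 motifs. This covers members alone: of the 4 lower pathway genes, Atf3 holds TGATGNAA, as shown, and Ppp1r15a holds TGACGTCA. Matches in the windows of the others, Gadd45a and Gadd45b, were not listed. Bases outside the windows were not searched, so an element elsewhere in or near a gene would be missed. The sequence just before the start of Atf4 and Slc38a2 is given for comparison, with no base marked.
Atf4, chr15:80255084-80255183, plus strand: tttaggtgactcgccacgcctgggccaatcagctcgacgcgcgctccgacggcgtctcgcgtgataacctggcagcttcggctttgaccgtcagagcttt
Slc38a2, chr15:96699731-96699828, minus strand: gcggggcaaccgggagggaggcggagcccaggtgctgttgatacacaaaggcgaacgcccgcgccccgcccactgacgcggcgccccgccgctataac

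Of the 10 genes, 1 passed the test: Slc38a2 was lower in the ultrasound libraries (limma adjusted p 0.0484). In Atf4, Ddit3 and Slc3a2 all 3 ultrasound libraries also lay below all controls, but these genes had limma adjusted p of 0.0512, 0.0589 and 0.0742. The other 6 genes overlapped between the groups and did not pass. Values are FPKM, fragments scaled by the authors to gene length and library size, and log2 changes are on the log2(FPKM + 1) scale, ultrasound minus control, which understates the change of low genes. A gene was called at a limma adjusted p under 0.05 over the 10655 genes that reached 1 FPKM in at least 3 libraries, and all 10 genes entered this test.

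These counts stand beside the background of the whole table. By limma 8.11% of all tested genes were called, 6.55% higher and 1.56% lower, so 1 call among 10 genes lies near the background. Below every control in all ultrasound libraries were 4 of the 10 genes, against 8.96% of all tested genes, and above every control were 0, against 25.9%. The median log2 change of the 10 genes was -0.02, and that of all tested genes 0.09. In the authors' deposited table, which comes from DESeq2 per its headers, 4 of the 10 genes have q under 0.05, all lower (Slc38a2, Atf4, Ddit3 and Slc3a2). There 12.3% of all genes have such a q, 4.98% lower and 7.3% higher. These shares are over all 17744 genes, also those below the filter at 1 FPKM, while the 10 genes all passed it. They are thus not shares of genes as abundant as the 10.

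**Figure D1:**
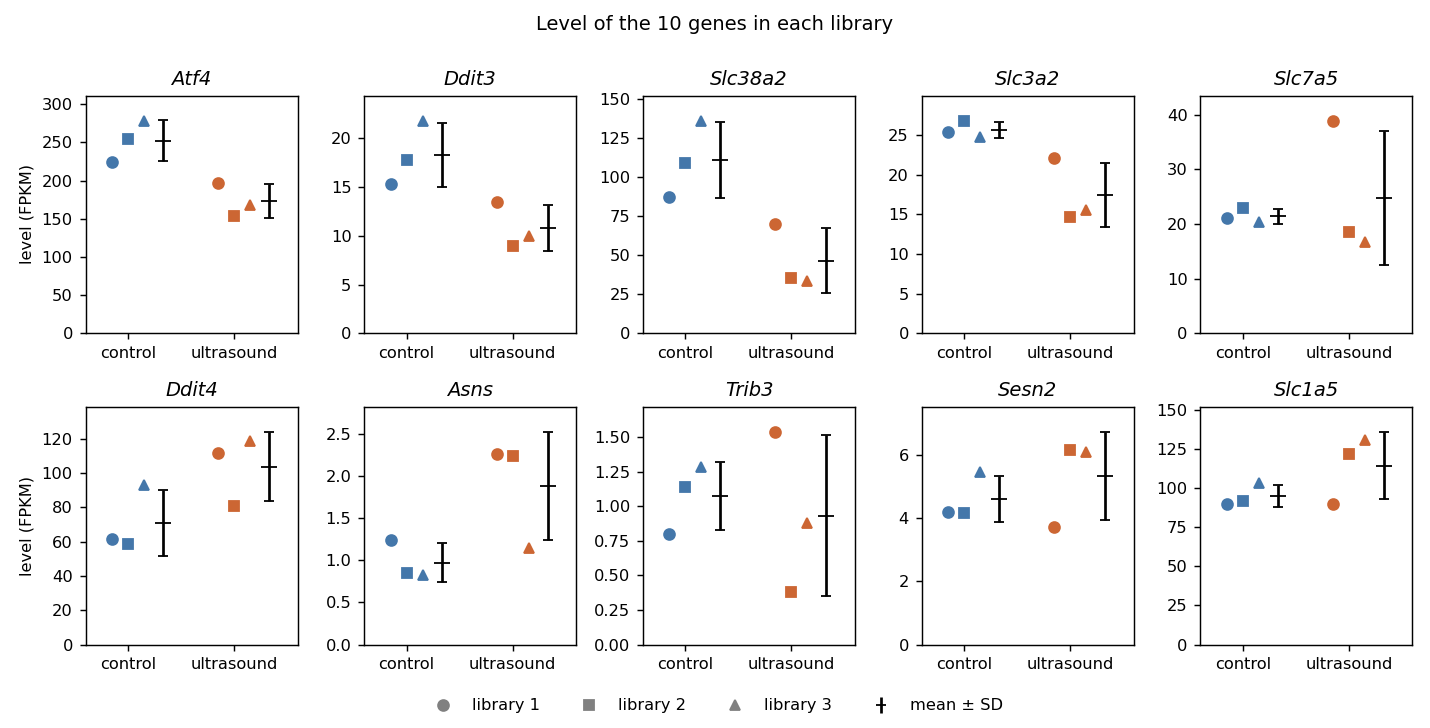
Level of each of the 10 genes in FPKM (y axes, each starting at 0) in the 3 control (blue) and 3 ultrasound (orange) libraries, with the mean ± SD of each group in black. In the panels of Atf4, Ddit3, Slc38a2 and Slc3a2 all 3 ultrasound libraries lie below all 3 controls; Slc7a5 is set apart by ultrasound 1 at 38.9 FPKM.

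One library bears on every value that follows. On the first principal component, with 70.8% of the variance, ultrasound 1 lay at -0.53, between the controls (-28.6 to -15.8) and ultrasound 2 and ultrasound 3 (33.2 and 39.7). The libraries hold 35024080 to 38113103 reads. Results are therefore also given without ultrasound 1, where 53.7% of all tested genes were called (34.1% higher, 19.7% lower), and for ultrasound 1 against the controls, from a fit with a term for ultrasound 2 and ultrasound 3, where 1.41% were (0.967% higher, 0.441% lower). That fit was added after the data were seen; it compares 1 library, assumed to vary like the others, which alone supply its spread, and its values for single genes are given as a description, with no p. Voom on the recovered reads, which called 7.88% of all tested genes (6.21% higher, 1.67% lower), called Slc38a2 and Atf4, both lower. Beside the CD8 T cell markers, of which 0 of 10 were called, markers of other cells differed between the groups. Of 14 macrophage and monocyte markers 7 were higher, with summed levels of 399 to 864 FPKM in controls and 2032 to 3480 in ultrasound libraries. Of 4 tested plasma cell markers 3 were higher (summed over 5, 103 to 159 against 250 to 355 FPKM), and of 11 neutrophil markers 2 were (200 to 600 against 684 to 2541). Of 14 activation and immediate early genes 9 were lower (3780 to 4854 against 880 to 2391 FPKM), as were 2 of 11 heat shock genes (2744 to 5371 against 2231 to 2358). Of 7 B cell markers 0 were called, but their summed level spread more in ultrasound libraries (171 to 893 FPKM) than in controls (230 to 355). It was 171 FPKM in ultrasound 1 and 893 and 780 in ultrasound 2 and ultrasound 3. Without ultrasound 1 all 7 were called higher, where 34.1% of all tested genes were. Leaving out such a library favours a call, so this is a description. The neutrophil sum was split the other way, at 2541 FPKM in ultrasound 1 and 684 and 720 in ultrasound 2 and ultrasound 3. Over all libraries 6.55% of all tested genes were higher and 1.56% lower. No marker of these lists was at 0 in all libraries. The part of other cells in the results was not tested. In such bulk samples, fewer cells of a type and less RNA per cell cannot be told apart.

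The transcription factors come first. Atf4 (NCBI Gene 11911, chr15:80255184-80257545 in GRCm38.p6) encodes the central transcription factor of the response, and it was the most abundant of the 10 genes. Its level was 225, 254 and 278 FPKM in control 1, 2 and 3 and 197, 154 and 168 FPKM in ultrasound 1, 2 and 3. The groups did not overlap, and ultrasound 1 was the ultrasound library nearest to the controls. The mean went from 252 ± 26.7 to 173 ± 22.2 FPKM (SD, n = 3 each), 68.5% of the control mean. The log2 change was -0.55 (SE 0.13, 95% interval -0.85 to -0.24, limma adjusted p 0.0512). The authors' deposited table gives a log2 fold change of -0.67 and q of 0.00121. Counting error is small beside this spread, since each library holds 9953 to 16952 Atf4 reads.

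Ddit3 (NCBI Gene 13198, chr10:127290793-127296291) encodes CHOP, a C/EBP family factor that ATF4 induces and that can promote cell death. Its level was 15.3, 17.8 and 21.8 FPKM in the controls and 13.5, 8.99 and 10.01 FPKM in ultrasound 1, 2 and 3. As for Atf4, ultrasound 2 was the lowest library and control 3 the highest. The mean went from 18.3 ± 3.28 to 10.8 ± 2.36 FPKM (SD, n = 3 each), a log2 change of -0.71 (SE 0.18, 95% interval -1.14 to -0.28, limma adjusted p 0.0589), and the authors' deposited table gives -0.88 with q of 0.00337. Across the 6 libraries Ddit3 and Atf4 had a Pearson correlation of 0.995, which is a description, since the libraries share their groups. The ratio of Ddit3 to Atf4 FPKM was 0.0681, 0.0700 and 0.0784 in controls and 0.0684, 0.0586 and 0.0597 in ultrasound 1, 2 and 3, and these ranges overlap (exact permutation p 0.2, two-sided). In the GENCODE M21 annotation Ddit3 exons share 68 bases with exons of Mars and 13 with those of Gm4189, both on the opposite strand, and reads there could not be told apart without strand.

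Trib3 (NCBI Gene 228775, chr2:152337425-152344060), a pseudokinase that ATF4 and CHOP induce and that restrains them, was low. Its level was 0.801, 1.14 and 1.29 FPKM in controls and 1.54, 0.377 and 0.883 FPKM in ultrasound 1, 2 and 3. The highest and the lowest library were thus both ultrasound libraries. Its log2 change of -0.14 (95% interval -0.69 to 0.41, limma adjusted p 0.685) rests on 29 to 111 reads per library.

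Ddit4 (NCBI Gene 74747, chr10:59949675-59951770) encodes REDD1, which restrains mTORC1 and is also induced by glucocorticoids and low oxygen. Its level was 61.7, 58.4 and 93.3 FPKM in controls and 112, 80.8 and 119 FPKM in ultrasound 1, 2 and 3. Control 3 lay above ultrasound 2, so the groups overlapped. The log2 change was 0.55 (SE 0.22, 95% interval 0.03 to 1.07, limma adjusted p 0.146). Among 6 tested glucocorticoid response genes 0 were called. Their median log2 change was -0.50, 4 of the 6 lay below 0 and 2 were below every control. Of all tested genes 8.96% were below every control and 61.7% lay above 0. The summed level of the list was 580.3 to 719 FPKM in controls and 236 to 568 in ultrasound libraries. Within this list Tsc22d3, which encodes the glucocorticoid-induced protein GILZ, was one of the 2 genes above 0, at 0.26 (limma adjusted p 0.234).

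Sesn2 (NCBI Gene 230784, chr4:132492804-132510456) encodes Sestrin2, a leucine sensor that inhibits mTORC1. Its level was 4.19, 4.17 and 5.45 FPKM in controls and 3.71, 6.16 and 6.08 FPKM in ultrasound 1, 2 and 3. Ultrasound 1 was the lowest of all 6 libraries and ultrasound 2 and ultrasound 3 the highest. Over all libraries the log2 change was 0.16 (95% interval -0.30 to 0.61, limma adjusted p 0.591). Without ultrasound 1 it was 0.35, given as a description with no p, because leaving out the lowest library favours a pass.

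Asns (NCBI Gene 27053, chr6:7675165-7693209) encodes asparagine synthetase, a classical ATF4 target. It was near the lower limit of the tested range. Its level was 1.23, 0.845 and 0.827 FPKM in controls and 2.26, 2.23 and 1.14 FPKM in ultrasound 1, 2 and 3. Ultrasound 3 lay below control 1, and the other ultrasound libraries lay above all controls. Its log2 change of 0.53 (SE 0.19, 95% interval 0.07 to 0.99, limma adjusted p 0.124) rests on 69 to 198 reads per library. The ratio of Asns to Atf4 FPKM was 0.00298 to 0.00549 in controls and 0.00681 to 0.0145 in ultrasound libraries, without overlap. An exact permutation test of this ratio gave a two-sided p of 0.1, the smallest that 3 against 3 allow, and 0.133 after Benjamini-Hochberg adjustment over the 4 ratios computed.

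Among the transporters, Slc38a2 (NCBI Gene 67760, chr15:96687392-96699728) encodes SNAT2, a sodium-coupled carrier of small neutral amino acids such as alanine and glutamine that amino acid shortage induces. Its level was 87.3, 109 and 136 FPKM in controls, 70.1 in ultrasound 1, and 35.6 and 33.6 in ultrasound 2 and ultrasound 3. All ultrasound libraries lay below all controls. It fell from 111 ± 24.2 to 46.4 ± 20.6 FPKM (SD, n = 3 each), 42.0% of the control mean, a log2 change of -1.29 (SE 0.30, 95% interval -2.01 to -0.58, limma adjusted p 0.0484). The call rests on the choice of libraries and settings: it held under 5 of 15 alternatives, with adjusted p from 0.000756 to 0.193. When any library other than ultrasound 1 was left out, 0 of the 10 genes passed. Of all tested genes, 567 then passed without control 1 and 0 without control 2, control 3, ultrasound 2 or ultrasound 3. The authors' deposited table gives a log2 fold change of -1.38 and q of 0.000756. Slc38a1, which encodes the related carrier SNAT1, had a log2 change of -0.03 (limma adjusted p 0.864). The ratio of Slc38a2 to Slc38a1 FPKM went from 5.65 ± 1.67 to 2.34 ± 0.803 (SD, n = 3 each; exact permutation p 0.1, adjusted 0.133).

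Slc3a2 (NCBI Gene 17254, chr19:8706882-8723369) encodes the CD98 heavy chain, which carries LAT1 and several other light chains to the cell surface. Its level was 25.4, 26.7 and 24.7 FPKM in controls and 22.1, 14.7 and 15.5 FPKM in ultrasound 1, 2 and 3. The controls lay close together, and every ultrasound library lay below them. The log2 change was -0.55 (SE 0.16, 95% interval -0.92 to -0.18, limma adjusted p 0.0742), and the authors' deposited table gives -0.68 with q of 0.00880. Slc7a5 (NCBI Gene 20539, chr8:121881146-121907686) encodes its partner LAT1, the carrier of leucine and other large neutral amino acids. Its level was 21.1, 23.0 and 20.3 FPKM in controls, 38.9 in ultrasound 1, and 18.5 and 16.8 in ultrasound 2 and ultrasound 3.

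Slc7a5 thus lay above every control in 1 ultrasound library and below every control in the others. Its log2 change over all libraries was 0.097 (SE 0.29, 95% interval -0.60 to 0.80, limma adjusted p 0.834). As a description, with no test because ultrasound 1 was seen to stand apart for this gene, the log2 difference from the controls was 0.83 in ultrasound 1 and -0.27 over ultrasound 2 and ultrasound 3. The ratio of Slc7a5 to Slc3a2 FPKM was 0.831, 0.860 and 0.821 in controls and 1.76, 1.26 and 1.08 in ultrasound 1, 2 and 3. The groups did not overlap in this ratio, and an exact permutation test gave a two-sided p of 0.1 (adjusted 0.133). Whether the ratio lies below or above 1 depends on the gene lengths that the authors used. With the longest GENCODE M21 transcripts the control and ultrasound means would be 91.1 and 61.9 FPKM for Slc3a2. For Slc7a5 they would be 21.4 and 24.7 FPKM, below Slc3a2 in both groups. In ultrasound 2 and ultrasound 3 both genes were below the controls, Slc3a2 at 0.572 and 0.604 of the control mean and Slc7a5 at 0.863 and 0.781.

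Slc1a5 (NCBI Gene 20514, chr7:16781334-16798274) encodes ASCT2, an exchanger of glutamine and other neutral amino acids. Its level was 89.6, 92.0 and 103 FPKM in controls, 89.9 in ultrasound 1, and 122 and 131 in ultrasound 2 and ultrasound 3. Ultrasound 1 lay within the controls and the others above them. Over all libraries the log2 change was 0.25 (95% interval -0.12 to 0.61, limma adjusted p 0.291). Without ultrasound 1 it was 0.41, also a description with no p, because ultrasound 1 was seen to stand apart from ultrasound 2 and ultrasound 3.

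**Figure D2:**
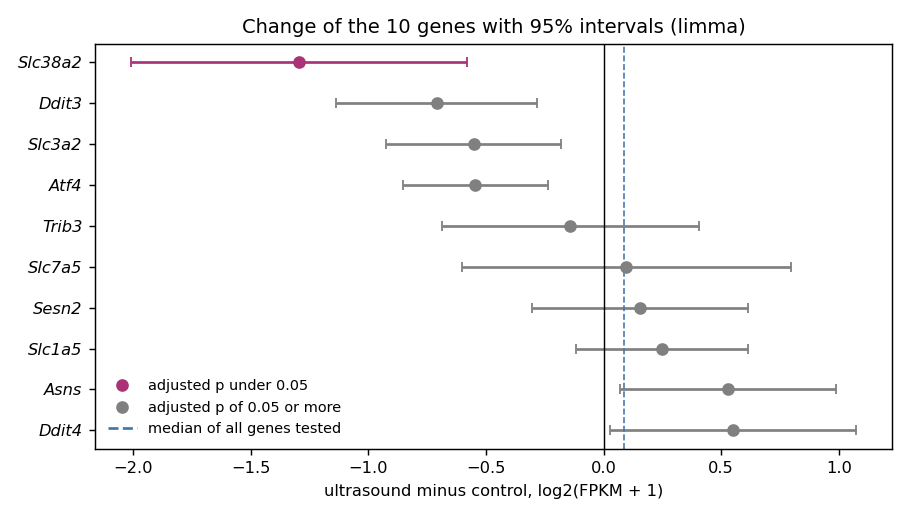
Difference between ultrasound and control libraries for each of the 10 genes (x axis, log2(FPKM + 1)), with 95% intervals from limma over 3 libraries a group; the dashed line is the median of all tested genes at 0.09. Slc38a2 at -1.29 is the gene with an adjusted p under 0.05, while the intervals of Ddit3, Slc3a2 and Atf4 lie below 0 and those of Asns and Ddit4 above 0 without passing the adjustment.

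Without ultrasound 1, 7 of the 10 genes passed, where 53.7% of all tested genes did. Slc38a2 (-1.63), Ddit3 (-0.87), Slc3a2 (-0.73), Atf4 (-0.64) and Slc7a5 (-0.27) were lower, and Slc1a5 (0.41) and Sesn2 (0.35) higher, as log2 changes. For Slc7a5, Sesn2 and Slc1a5, ultrasound 1 lay on the other side of the control mean (0.83, -0.24 and -0.07). Leaving out such a library favours a pass, so the passes of these genes are a description. The log2 differences of Atf4, Ddit3, Slc3a2 and Slc38a2 in ultrasound 1 were -0.35, -0.40, -0.20 and -0.63, all below 0 and all smaller in size than without it.

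Per length, the control order of the 10 genes ran from Atf4 over Slc38a2 (111 FPKM), Slc1a5 (94.9 ± 7.28 FPKM, SD, n = 3), Ddit4, Slc3a2, Slc7a5, Ddit3 and Sesn2 (4.602 FPKM) to Trib3 (1.08 FPKM) and Asns (0.969 FPKM). Single control libraries overlapped between Slc38a2 and Slc1a5, Slc1a5 and Ddit4, Slc7a5 and Ddit3, and Trib3 and Asns, which are neighbours in this order. In ultrasound libraries the means of Slc1a5 (114 FPKM) and Ddit4 (104 FPKM) stood above that of Slc38a2 (46.4 FPKM), and that of Slc7a5 above that of Slc3a2. The order depends on the gene lengths that the authors used. For Slc3a2 the reads and FPKM imply a length of 9996 bases, against 2813 for its longest GENCODE M21 transcript. The shorter length would put its control mean at 91.1 FPKM and its ultrasound mean at 61.9 FPKM, above Slc7a5 in both groups. For Ddit3 they imply 2542 bases against 969, which would give a control mean of 48.0 FPKM. For Slc7a5 both lengths are close, at 3513 and 3517 bases. Ratios of FPKM between libraries do not depend on the length. Changes on the log2(FPKM + 1) scale do, more so in low genes, because of the added 1. With 0.1 added instead, the change was 0.85 rather than 0.53 for Asns and -0.76 rather than -0.71 for Ddit3. The filter at 1 FPKM depends on the length too.

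The wider pathway was described with 6 lists. Of 145 listed genes 129 were tested, 8 were higher and 4 lower, a share near the 8.11% background, and their median log2 change was 0.12. Above every control were 38 of them and below every control 13, against 25.9% and 8.96% of all tested genes. By the authors' deposited q, 14 of the 145 are higher and 11 lower, against 7.3% and 4.98% of all 17744 genes, low ones included. The calls of the 9 pathway genes given with their values below held under 4 (Slc6a6) to 8 of 15 alternatives each.

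The sensors and brakes of eIF2 phosphorylation gave 1 call. Of 20 tested genes for the kinases, eIF2, eIF2B and the phosphatase, 0 were higher and 1 was lower, with a median log2 change of 0.03. Of all tested genes 6.55% were higher and 1.56% lower. The 4 eIF2 kinases had log2 changes of 0.19 for Eif2ak1 (HRI, the heme sensor), -0.03 for Eif2ak2 (PKR, the sensor of double-stranded RNA), 0.05 for Eif2ak3 (PERK, the sensor in the endoplasmic reticulum) and 0.27 for Eif2ak4 (GCN2, the sensor of uncharged tRNA). Their limma adjusted p were 0.144, 0.831, 0.703 and 0.139. The 1 gene that passed was Ppp1r15a, which encodes GADD34, the stress-induced subunit that directs a phosphatase to eIF2 and so ends the response. Its level was 305, 330 and 417 FPKM in controls and 213, 93.3 and 120 FPKM in ultrasound 1, 2 and 3, without overlap. It fell by 1.37 on the log2 scale (SE 0.30, limma adjusted p 0.0433).

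Among 19 tested partners and target regulators, 2 were higher and 3 lower, against 6.55% and 1.56% of all tested genes. Above every control were 5 of them and below every control 7, against 25.9% and 8.96% of all tested genes. The median was -0.13. Atf3, a factor that ATF4 and many other stress signals induce, fell from 65.8 ± 17.1 to 18.4 ± 10.8 FPKM (SD, n = 3 each), with a log2 change of -1.93 (SE 0.44, limma adjusted p 0.0470). Gadd45b, a growth arrest and stress gene, fell from 111 ± 26.2 to 36.0 ± 23.2 FPKM (log2 change -1.75, SE 0.40, limma adjusted p 0.0475), and its relative Gadd45a was the third lower gene. Nupr1, a stress-induced chromatin protein, rose from 3.81 ± 1.78 to 24.8 ± 12.1 FPKM (log2 change 2.38, SE 0.38, limma adjusted p 0.0304), and Nfe2l1 was the other higher gene. Nupr1 was 5.79, 3.28 and 2.35 FPKM in control libraries and 15.3, 20.6 and 38.4 in ultrasound 1, 2 and 3. The macrophage markers moved with it, at a list median of 0.47, -0.16 and -0.33 in control libraries and 1.23, 1.19 and 1.53 in ultrasound 1, 2 and 3 as log2 differences from the control mean. Atf5, another ATF family factor of the response, had a log2 change of 0.11 (limma adjusted p 0.543). Chac1, a glutathione-degrading enzyme and ATF4 target whose element is shown above, was too low to test, at 0.199 to 0.235 FPKM in controls and 0.255 to 0.518 in ultrasound libraries, or 11 to 31 reads.

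Amino acid synthesis and tRNA charging, which ATF4 drives under shortage, gave 0 calls, where 8.11% of all tested genes were called. Of 16 tested synthesis and one-carbon enzymes 0 passed (median 0.01, limma adjusted p of 0.158 or more), while the authors' deposited table has 2 higher. Psat1 and Phgdh of serine synthesis had log2 changes of -0.05 and 0.05 (limma adjusted p 0.759 and 0.737), and the mitochondrial folate enzyme Mthfd2 had 0.02 (limma adjusted p 0.889). Of 20 tested cytosolic aminoacyl tRNA synthetases 0 passed (median 0.08, limma adjusted p of 0.0508 or more), while the authors' deposited table has 2 lower.

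Of 18 other amino acid transporters that were tested, 4 were higher and 0 lower, where 6.55% of all tested genes were higher. Their median was 0.33 and 14 of 18 lay above 0, against 61.7% of all tested genes. Slc7a7, a light chain of CD98 for cationic and neutral amino acids, rose from 1.64 ± 0.739 to 4.93 ± 1.02 FPKM (SD, n = 3 each; log2 change 1.19, limma adjusted p 0.0333). By library Slc7a7 was 2.46, 1.45 and 1.02 FPKM in control 1, 2 and 3 and 3.99, 4.77 and 6.01 in ultrasound 1, 2 and 3. Control 1 was its highest control and ultrasound 3 its highest library, as for the macrophage list median. The part of such cells in its change was not tested. Slc43a2, the LAT4 carrier of large neutral amino acids, rose from 8.22 ± 0.106 to 13.3 ± 1.76 FPKM (log2 change 0.62, limma adjusted p 0.0312). The taurine transporter Slc6a6 rose from 17.3 ± 0.897 to 24.4 ± 2.89 FPKM (log2 change 0.47, limma adjusted p 0.0481). The call of Slc6a6 was lost in the authors' deposited table (q 0.0704) and with median-of-ratios factors (limma adjusted p 0.104). It was also lost without any 1 library other than ultrasound 1, where at most 567 of all tested genes passed. The lysosomal carrier Slc36a1 was the fourth. The arginine and lysine carrier Slc7a1 had a log2 change of -0.15 (limma adjusted p 0.586), with 17.2 FPKM in ultrasound 1 above the controls (13.2 to 14.6) and 10.97 and 10.2 in ultrasound 2 and ultrasound 3 below them. The cystine carrier Slc7a11, whose 2 elements are shown above, was too low to test, at 0.0302 to 0.184 FPKM in controls and 0.0643 to 0.391 in ultrasound libraries.

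In the mTORC1 list, the growth kinase complex that amino acids activate and Sestrin2 and REDD1 restrain, 2 of 36 tested genes were higher and 0 lower, a share near the 6.55% of all tested genes. The median was 0.21, and 29 of 36 lay above 0, against 61.7% of all tested genes. Eif4ebp1, an ATF4-responsive repressor of cap-dependent translation that mTORC1 inactivates, rose from 6.96 ± 0.525 to 19.9 ± 6.08 FPKM (SD, n = 3 each; log2 change 1.36, limma adjusted p 0.0304). Lamtor1, the lysosomal anchor of the Ragulator complex, rose from 31.8 ± 2.42 to 48.9 ± 5.06 FPKM (log2 change 0.60, limma adjusted p 0.0312). Myc, which drives amino acid transporter genes in activated T cells, had a log2 change of 0.10 (limma adjusted p 0.543). The direction of a gene as close to 0 as Myc, Mthfd2, Phgdh or Eif2ak3 turned with the scaling, to below 0 under median-of-ratios size factors.

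**Figure D3:**
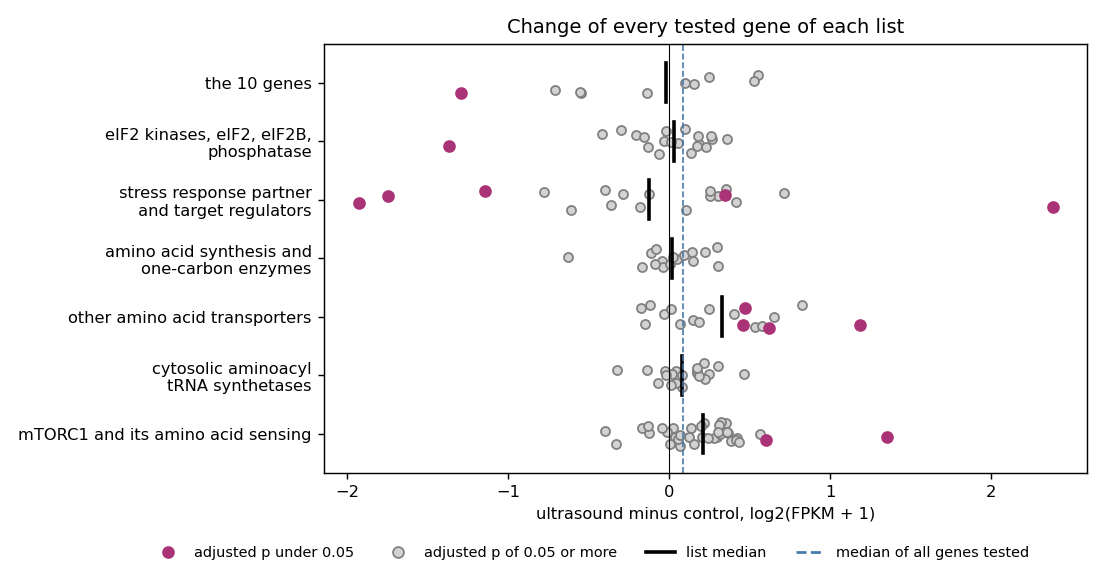
Difference between ultrasound and control libraries (x axis, log2(FPKM + 1)) for every tested gene of the 10 genes and of the 6 pathway lists; filled purple points passed an adjusted p of 0.05, black bars are list medians, and the dashed line is the median of all tested genes. Calls lower in ultrasound libraries lie among the 10 genes, the eIF2 list and the regulators, and calls higher among the regulators, the other transporters and the mTORC1 list; the synthesis enzymes and tRNA synthetases hold none.

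Genes of the unfolded protein response of the endoplasmic reticulum, which shares PERK with the integrated stress response, had calls in both directions. Of 12 tested, 2 were higher (Ern1 and Creld2) and 2 lower (Dnajb9 and Hspa5), against 6.55% and 1.56% of all tested genes. Their median log2 change was 0.40, and 10 of 12 lay above 0, against 61.7% of all tested genes. Above every control were 5 and below every control 2, against 25.9% and 8.96%. Ern1, the sensor IRE1, rose from 2.22 ± 0.303 to 4.98 ± 1.10 FPKM (SD, n = 3 each), and Creld2, a chaperone-like protein, from 20.9 ± 3.34 to 35.5 ± 5.47 FPKM (limma adjusted p 0.0312 and 0.0406). Hspa5, the chaperone BiP, was 416, 452 and 443 FPKM in controls and 333, 214 and 247 in ultrasound 1, 2 and 3 (limma adjusted p 0.0447). Dnajb9, its co-chaperone, was 74.2, 82.9 and 77.9 FPKM in controls and 42.6, 10.4 and 11.1 in ultrasound 1, 2 and 3 (limma adjusted p 0.0476). Xbp1, a factor of this response that also marks plasma cells, went from 36.1 ± 5.36 to 77.6 ± 11.5 FPKM (SD, n = 3 each), with a limma adjusted p of 0.0297, while 3 of 4 tested plasma cell markers, Xbp1 among them, were higher. These 5 genes were named after their values were seen, as were Gadd45a, Nfe2l1 and Slc36a1.

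The lower genes shared much of one profile over the ultrasound libraries. On the first principal component of all tested genes, too, ultrasound 1 was the ultrasound library nearest to the controls. As log2 differences from the control mean, the median of the activation and immediate early genes was -0.96 in ultrasound 1, -2.12 in ultrasound 2 and -1.56 in ultrasound 3, and Ppp1r15a had -0.70, -1.89 and -1.52. Atf4 had -0.35, -0.71 and -0.58, and Ddit3 -0.40, -0.94 and -0.80. In each case ultrasound 2 was lowest and ultrasound 1 nearest to the controls. For Slc38a2, with -0.63, -1.59 and -1.67, ultrasound 3 was lowest. The heat shock list had -0.82, -1.27 and -1.07, after -0.52, 0.12 and 0.42 in control 1, 2 and 3, so that control 1 was the lowest and control 3 the highest control, as for Atf4 (-0.16, 0.02 and 0.14). Not all lower genes shared this order of the controls. In control 1, 2 and 3 Atf3 had 0.36, -0.39 and 0.02, and Slc3a2 had -0.01, 0.06 and -0.05. The median of the CD8 T cell markers was -0.26, 0.02 and -0.07 in ultrasound 1, 2 and 3. The part of these lists in the values of Atf4, Ddit3 and Slc38a2 was not tested.

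**Figure D4:**
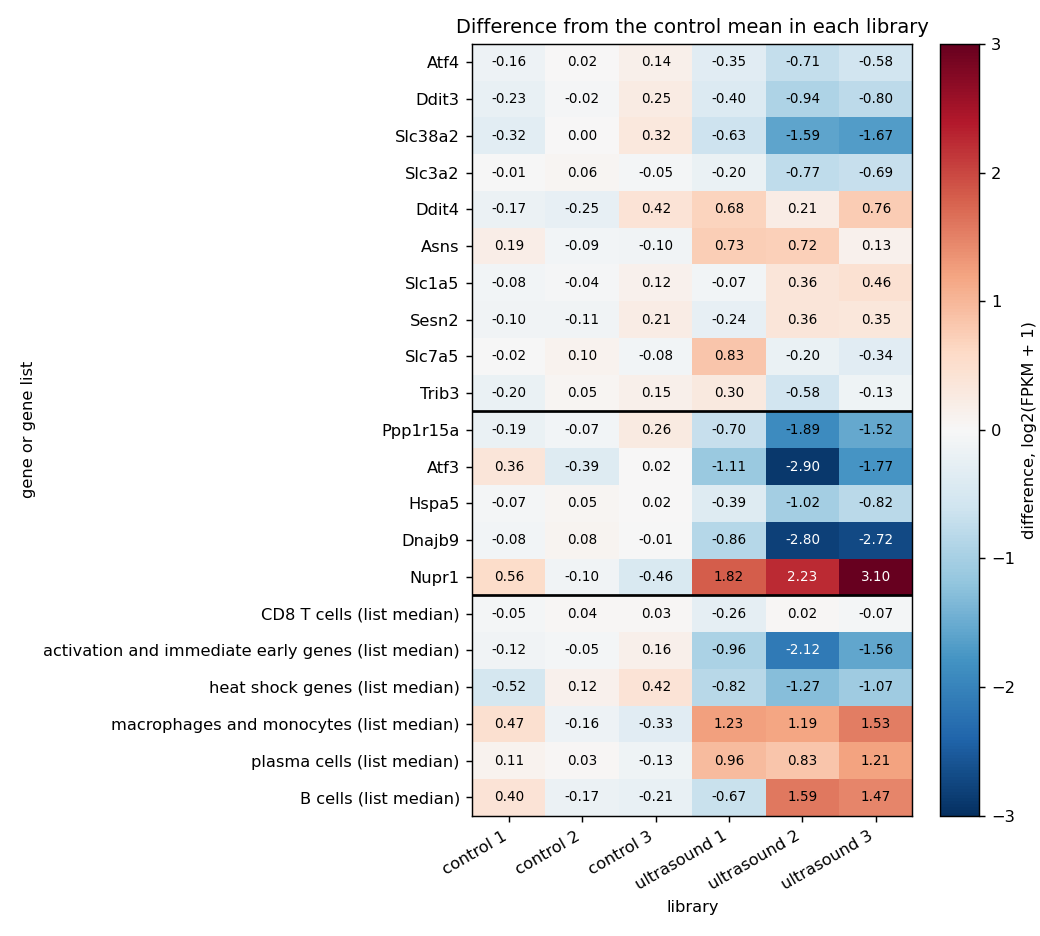
Difference of each library from the control mean on the log2(FPKM + 1) scale (colour and printed value) for the 10 genes, 5 further stress genes and the medians of 6 marker lists (rows) in the 6 libraries (columns). Atf4, Ddit3, Slc38a2, Slc3a2, Ppp1r15a, Atf3, Hspa5, Dnajb9 and the immediate early list are below 0 in all ultrasound libraries and less so in ultrasound 1; the macrophage and plasma cell lists and Nupr1 are above 0 in all of them.

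The genes most like Atf4 across the 6 libraries, among all tested genes outside the set, were Crem (Pearson r 0.999), Bambi (0.999), Mri1 (0.998), Tob1 (0.995) and Errfi1 (0.995). Tob1, an antiproliferative gene of quiescent T cells, was 36.9, 50.6 and 56.6 FPKM in controls and 27.3, 13.98 and 16.04 in ultrasound 1, 2 and 3. Within the set, Atf4 had r of 0.979 with Slc38a2, 0.921 with Slc3a2, 0.177 with Slc7a5 and -0.723 with Asns. The genes most like Slc7a5 were Slc36a4 (0.993), a lysosomal amino acid transporter of the wider lists, Dnajc10 (0.992), Kif1b (0.992), Trnp1 (0.989) and Rsad1 (0.987). All 5 of these were highest in ultrasound 1, where Slc36a4 had 4.10 FPKM against 2.42 to 2.70 in controls and 2.40 and 2.06 in ultrasound 2 and ultrasound 3. These correlations describe 6 libraries that share their groups, and the leading genes were picked as the highest among 10655.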

How the data were processed

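RNA of sorted splenic CD8 T cells was analysed in 6 libraries, grouped and numbered by their titles. The authors' full table gives FPKM per library. It also gives, per the file headers, a signal column set (group means of normalized counts), a fold change ratio, a log2 fold change, a p-value and a q-value made by the authors with DESeq2. The submitters' processing notes name HISAT2, HTSeq, DESeq2, R 3.2.0 and mm10. A deposited filtered table was not used here. The design text and the extract protocol name different kit versions.

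Limma 3.58.1 (trend, robust) in R 4.3.3 was run on log2(FPKM + 1) for the 10655 genes that reached 1 FPKM in at least 3 libraries, with Benjamini-Hochberg adjustment, two-sided. The members and lists were chosen with earlier results of these data known. Named are all members, the 3 largest called changes of each pathway list, a fixed panel (the eIF2 kinases and some regulators, transporters and enzymes) and the 5 genes most like Atf4 and Slc7a5. Whole reads were recovered from the linear relation between the FPKM columns and the authors' group means: of 46617 values up to 300 reads, 100% lay within 0.05 of a whole number. They served voom and depth. Reads carry no molecular identifiers. Longest transcripts and exon overlaps came from GENCODE M21, coordinates and promoters from RefSeq GRCm38.p6, the patch release of mm10. Parts of promoter windows under a GENCODE exon were not printed beyond 30 bases.

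In simulated data for this comparison, limma recovered 58.0% of genes changed by fold 2 and 6.76% by fold 1.5 at a dispersion of 0.05 over 10730 genes, with 7 false calls, and 100% and 95.2% at 0.01 over 10725 genes, with 14 false calls. Simulated libraries of a group shared a common mean and dispersion. The real ultrasound libraries were split, so these shares may not hold for them. Alternatives covered scaling, filter, pseudocount, robustness, threshold, a replicate block, voom, the authors' values and each library left out. A term for ultrasound 2 and ultrasound 3 was added after seeing the data. EdgeR and DESeq2 were not run. Tables and figures were made in Python 3.11.15 with pandas 2.3.3, numpy 2.4.6 and matplotlib 3.10.9.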

Additional observations from a re-analysis of the deposited data

How the results depend on the processing

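Of the 10 genes 1 passed; 4 passed in the authors' deposited table, 0 with median-of-ratios factors, 2 in a non-robust fit, 2 with voom, 0 without a filter and 4 at an adjusted p under 0.1. The 12 pathway genes became 25 in the authors' table, 5 with median-of-ratios factors, 0 without a filter, 8 with upper-quartile factors and 25 at an adjusted p under 0.1. Of all 10655 tested genes, 864 passed in the main fit, 437 with median-of-ratios factors and 623 with upper-quartile factors. The non-robust fit called 889 of them and voom 840, and 12.3% of all 17744 genes passed in the authors' table. The number of all genes at an adjusted p under 0.1 is not given here. Without one library, 0 to 7 members and 0 to 71 pathway genes passed. Without ultrasound 1 these were 7 and 71, where 5727 of all tested genes passed. Without control 1 they were 0 and 5, where 567 did. The 7 include Slc7a5, Sesn2 and Slc1a5, whose passes are a description, as said above. Without control 2, control 3, ultrasound 2 or ultrasound 3, 0 of all genes passed, with 1962, 2154, 2058 and 1998 at an unadjusted p under 0.05; without a filter 0 passed, with 4216. Same-numbered libraries do not deviate together (correlations -0.04, 0.05 and 0.06). With the replicate block 0 members and 0 pathway genes passed, while 3249 of all genes had an unadjusted p under 0.05.

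Directions that reversed belonged to genes that had not passed. With a term for ultrasound 2 and ultrasound 3 these were Trib3 (0.30), Sesn2 (-0.24), Slc1a5 (-0.074), Eif2ak3 (-0.043), Slc7a1 (0.29), Slc38a1 (0.11) and Phgdh (-0.069). With median-of-ratios factors these were Slc7a5 (-0.0041), Eif2ak3 (-0.045), Mthfd2 (-0.079), Phgdh (-0.056) and Myc (-0.0041), with upper-quartile factors Eif2ak3 (-0.035), Mthfd2 (-0.069) and Phgdh (-0.046), and in the authors' table Eif2ak3 (-0.066), Mthfd2 (-0.10), Phgdh (-0.076) and Myc (-0.017). The median log2 change of all tested genes was 0.09, and -0.02 in the authors' table. Leaving out one library gave ranges on both sides of 0 for Trib3 (-0.36 to 0.081), Slc7a5 (-0.27 to 0.31), Eif2ak2 (-0.11 to 0.0084), Slc38a1 (-0.10 to 0.049), Mthfd2 (-0.035 to 0.089) and Psat1 (-0.093 to 0.016). The cause was not tested. Asns, Trib3, Chac1 and Slc7a11 are limited by depth, with 198 reads or fewer per library.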
